A study of Homo sapiens with 16 samples.

Results

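Simvastatin alone was compared with its vehicle, DMSO, in U-251 MG cells, a long-established line from a human glioblastoma. The comparison takes 8 of the 16 poly(A) RNA libraries of the series, chosen by their labels: 4 from cells given simvastatin at 0.06 µM and 4 from cells given DMSO, each for 48 h from 24 h after seeding. The other 8 libraries came from the same line and the same treatment time with irinotecan at 0.6 µM, alone or together with simvastatin at 0.06 µM (called the combination). No group carries a genetic change that the labels name. In each group 3 libraries carry a number in their label, and the unnumbered one is called replicate 4 here. A single cell line stands for the tumour, and no label states if replicate libraries came from different cultures. The p-values therefore measure the spread between these libraries, which may be technical.

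Statins lower the synthesis of mevalonate. Mevalonate feeds cholesterol and also the isoprenoid tails that anchor small GTPases to membranes. It also feeds dolichol, a separate isoprenoid that carries sugars for glycosylation in the endoplasmic reticulum (ER). When ER sterol falls, SREBP2 is released and transcribes the genes of sterol synthesis and uptake. A different programme, the integrated stress response, runs through the transcription factors ATF4 and CHOP and raises genes of amino acid supply and stress signalling. The unfolded protein response adds chaperones and degradation factors to a loaded ER.

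The 4 DMSO libraries held 24478638 to 31932971 counts and the 4 simvastatin libraries 24669799 to 29756711. Within the 8 libraries the second principal component, with 19.9% of the variance, held the groups apart, and the first, with 21.0%, did not. Of the 8 markers of glioma and astrocytes all passed the filter on low counts, and their summed level was 7330 to 7560 CPM (counts scaled to the library total) with DMSO and 7110 to 7210 CPM with simvastatin (exact permutation p = 0.0286, the smallest that 4 against 4 libraries can give, adjusted p = 0.228 over 8 values). Markers of other cell types were low in both groups: all 4 lymphocyte markers together had at most 0.0409 CPM in any library, all 4 epithelial markers at most 0.595 CPM, all 5 myeloid markers at most 2.08 CPM all 4 endothelial markers at most 4.26 CPM and all 4 oligodendrocyte markers at most 2.25 CPM. All 6 neuron markers together had 62.4 to 80.9 CPM with DMSO and 68.7 to 78.4 CPM with simvastatin. Most of that sum came from GAD1, at 44.3 to 64.6 CPM with DMSO and 47 to 55.9 CPM with simvastatin. SYT1 did not overlap, at 13.1 to 15.1 CPM with DMSO and 16.9 to 18.3 CPM with simvastatin. Of the 5 neuron markers tested 1 was called higher and none lower in the test described below. The share of counts from mitochondrial genes was 2.69% to 4.58% with DMSO and 2.56% to 4.22% with simvastatin (exact permutation p = 0.543).

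Simvastatin changed the level of 999 of 16647 genes tested (6.00% of genes), 647 higher (3.89%) and 352 lower (2.11%), at a Benjamini-Hochberg adjusted p under 0.05 in edgeR's quasi-likelihood test. The shares of 3.89% and 2.11% are those to set beside the counts of each gene list below. The 2 sides differed in size: the median log2 fold change was 0.272 among genes called higher and -0.196 among genes called lower, and the median over all genes was -0.0073. Changes of at least 2-fold numbered 31 on the higher side and 5 on the lower. Over all genes the 4 simvastatin libraries lay wholly above the 4 DMSO libraries in 5.76% and wholly below them in 4.24%, and this held for 587 of the genes called higher and 289 of those called lower. Leaving out simvastatin replicate 4 gave 664 calls (469 higher, 195 lower), and leaving out simvastatin replicate 3 gave 1224 (644 higher, 580 lower). The plot of change against level shows the 5 called genes that changed at least 4-fold, all of them higher.

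**Figure D1:**
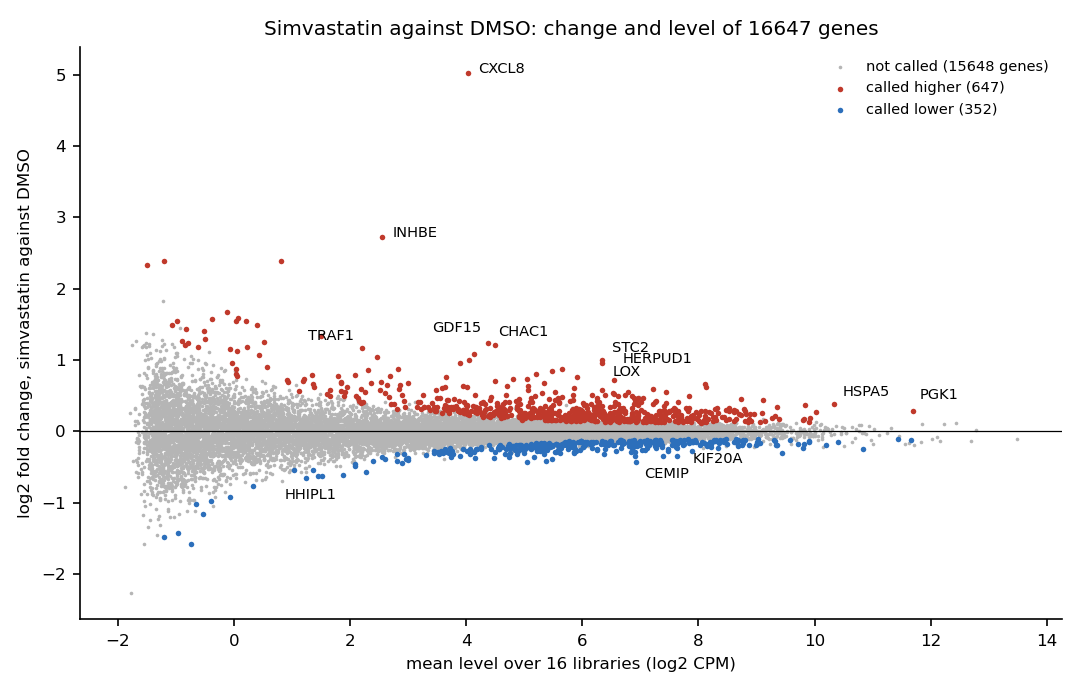
Log2 fold change of each gene with simvastatin against DMSO (vertical axis) over its mean level in log2 CPM across the 16 libraries (horizontal axis). Red points are the 647 genes called higher, blue points the 352 called lower, grey points the genes not called, and CXCL8 at 5.02 and INHBE at 2.72 stand above the other labelled genes.

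CXCL8, the gene of the neutrophil-attracting chemokine interleukin-8, had the highest log2 fold change among called genes with a mean level of at least 1 log2 CPM. Its level was 1.48, 0.870, 1.07 and 0.775 CPM in DMSO replicates 1 to 4 and 34.3, 28.6, 28.2 and 45.7 CPM in the simvastatin replicates. Every simvastatin library was far above every DMSO library, and simvastatin replicate 4 was the highest of them. The log2 fold change was 5.02 ± 0.22 (SE, 32.6-fold, adjusted p = 1.81e-09). CXCL8 is ENSG00000169429 on chromosome 4 of GRCh38. The 250 bases before its RefSeq start hold an AP-1 site (TGANTCA, bases -137 to -131) and an NF-κB site (GGAATTTCC, bases -91 to -83), shown in capitals because the members of the NF-κB list are described next (GRCh38.p14, chr4:73740319-73740568, plus strand).

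CXCL8: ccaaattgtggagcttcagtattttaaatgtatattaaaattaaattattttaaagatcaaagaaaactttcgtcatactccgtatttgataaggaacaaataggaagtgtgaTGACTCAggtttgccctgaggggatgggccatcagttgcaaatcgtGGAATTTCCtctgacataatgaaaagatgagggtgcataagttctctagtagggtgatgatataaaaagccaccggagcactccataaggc

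In all, 6.57% of 35116 RefSeq promoters of the same length hold that AP-1 motif on either strand and 0.413% the NF-κB motif. A match is a string of letters and was not tested for binding. Among the 9 tested of 21 chemokine and cytokine genes, 3 rose and none fell: besides CXCL8 these were IL11 (0.73 ± 0.08), a cytokine of the interleukin-6 family, and LIF (0.50 ± 0.06), of the same family. IL11 was at 24.2 to 29.8 CPM with DMSO and 40.4 to 50.7 CPM with simvastatin, and LIF at 108 to 130 and 157 to 184 CPM. CXCL2 and CXCL3, chemokines whose promoters also hold the NF-κB motif, had log2 fold changes of 0.36 and 0.69 and were not called. The other 12 genes of the list had too few counts to test.

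Of 12 NF-κB feedback genes 4 rose and none fell, with a median log2 fold change of 0.092. TRAF1, an adaptor of TNF receptor signalling, was at 2.59, 2.49, 2.45 and 1.81 CPM in the DMSO libraries and 5.68, 4.37, 4.41 and 6.45 CPM in the simvastatin libraries. The groups did not overlap (1.17 ± 0.14, adjusted p = 1.08e-06). RELB (0.68) and NFKB2 (0.25) encode the subunits of the non-canonical NF-κB pathway and IER3 (0.33) is an early response gene. The call of NFKB2 ended without simvastatin replicate 1 (adjusted p = 0.0812). NFKBIA (0.09), which encodes the main inhibitor of NF-κB and is its standard feedback target, was not called, and neither were TNFAIP3 (0.08) and BIRC3 (0.17).

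Genes of ATF4 and CHOP rose together: 17 of 23 tested members rose and none fell, with a median log2 fold change of 0.455. In all 17 the simvastatin libraries lay wholly above the DMSO libraries. That also held for 587 of the 647 genes called higher and for 5.76% of all genes. INHBE, which encodes an inhibin beta subunit, was at 1.55, 1.49, 1.11 and 1.65 CPM with DMSO and at 9.24, 8.91, 8.02 and 12.5 CPM with simvastatin. The groups did not overlap and simvastatin replicate 4 was again the highest (2.72 ± 0.15, adjusted p = 4.43e-13). CHAC1, which degrades glutathione, was at 14.4, 11.1, 11.8 and 13.8 CPM with DMSO and at 33.2, 28.4, 26.7 and 33.4 CPM with simvastatin (1.24 ± 0.08, adjusted p = 2.67e-11). Its promoter holds a C/EBP-ATF response element (CARE, TGATGNAA on either strand), the composite site that ATF4 binds, at bases -209 to -202 in capitals (GRCh38.p14, chr15:40953221-40953470, plus strand).

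CHAC1: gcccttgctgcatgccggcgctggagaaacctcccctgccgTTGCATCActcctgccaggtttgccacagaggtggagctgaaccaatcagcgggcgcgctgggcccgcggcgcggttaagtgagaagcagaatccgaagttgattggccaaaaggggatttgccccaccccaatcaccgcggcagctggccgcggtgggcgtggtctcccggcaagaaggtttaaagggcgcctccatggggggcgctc

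The CARE letters are in 3.14% of all RefSeq promoters and in 1.47% of the 11019 promoters matched to tested genes by symbol. Of the 14 called ATF4 and CHOP members with a promoter in the table, 2 hold them, CHAC1 and ATF3. GDF15, a stress cytokine, rose from 9.04 ± 0.95 to 21.1 ± 4.1 CPM (SD, n = 4). STC2, a secreted glycoprotein, was at 71.2, 65.6, 62.4 and 61.5 CPM with DMSO and at 134, 125, 126 and 136 CPM with simvastatin, a 2.00-fold rise with little spread in either group (adjusted p = 3.86e-14). ADM2, a peptide hormone of the calcitonin family, rose by 1.04 ± 0.13 on the log2 scale.

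ATF4 itself, mostly controlled at translation, rose from 349 ± 16 to 431 ± 27 CPM (0.30 ± 0.04), and DDIT3, which encodes CHOP, from 9.98 ± 1.69 to 13.5 ± 1.7 CPM (0.43 ± 0.10). DDIT3 shares 39.6% of its exonic bases with a neighbouring gene, so its counts may include reads of that gene. EIF2AK3, the ER-resident kinase PERK that starts the response from the ER, rose by 0.41 ± 0.05. EIF2AK4, the kinase GCN2 that senses uncharged tRNA, had a log2 fold change of -0.03 and was not called. TRIB3 (0.88), SESN2 (0.81), DDIT4 (0.76) and NUPR1 (0.76) are stress-induced brakes or cofactors downstream, and all 4 rose. PPP1R15A (0.12), the phosphatase subunit GADD34 that ends the response, was not called.

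**Figure D2:**
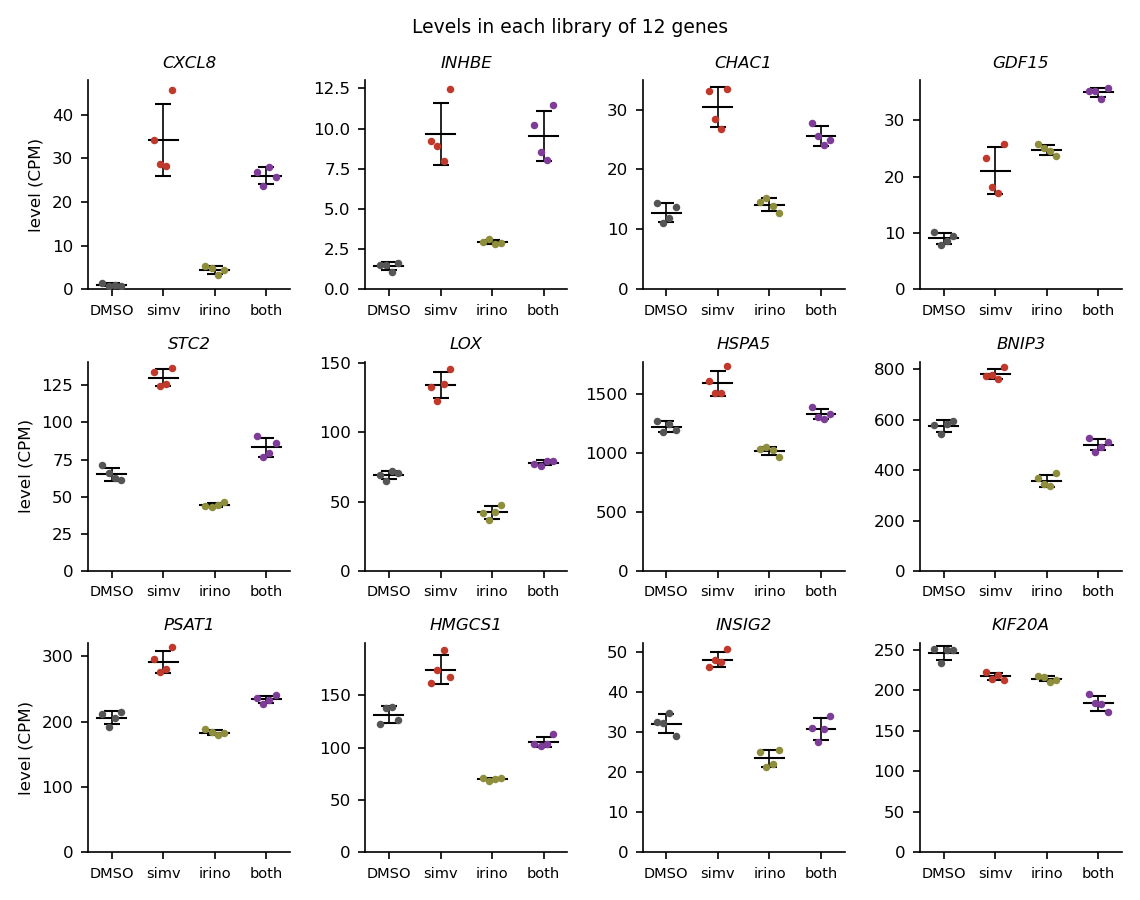
Level in CPM (vertical axes, from 0) of 12 genes in each of the 16 libraries by group, with black bars for the mean and SD of 4 libraries (DMSO, simv for simvastatin, irino for irinotecan, both for the combination). For CXCL8 the DMSO libraries lie between 0.775 and 1.48 CPM and the simvastatin libraries between 28.2 and 45.7 CPM.

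Genes that supply amino acids also rose. Of 15 tested enzymes of amino acid synthesis and folate metabolism 11 rose and 1 fell (median 0.328), and of 10 tested amino acid transporters 8 rose and none fell (median 0.384). The serine pathway moved as a series: PHGDH, its first enzyme, by 0.30 ± 0.05, PSAT1, the next, by 0.50 ± 0.04, and SHMT2 and MTHFD2, which carry serine carbon into mitochondrial folate, by 0.33 ± 0.05 and 0.56 ± 0.04. PSAT1 was at 212, 192, 206 and 214 CPM with DMSO and at 296, 275, 281 and 314 CPM with simvastatin. CTH, which makes cysteine, went from 11.2 ± 1.0 to 22.2 ± 1.5 CPM, and PYCR1, which makes proline, from 48.6 ± 4.3 to 74.1 ± 5.7 CPM. The cytosolic folate enzyme MTHFD1 was the gene called lower (-0.12), a call that ended without any of DMSO replicates 1, 3 and 4 and simvastatin replicates 2 and 4 (highest adjusted p = 0.115). PSPH, the last enzyme of serine synthesis, rose by 0.14, a call that ended without any of DMSO replicates 2 and 4 and simvastatin replicates 1 and 4 (highest adjusted p = 0.118).

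ASNS, asparagine synthetase and a well known ATF4 target, had a low level, at 0.612, 0.538, 0.474 and 1.32 CPM with DMSO and 1.51, 2.06, 1.51 and 1.53 CPM with simvastatin. The groups did not overlap (1.12 ± 0.27, adjusted p = 0.00889), but 44.6% of its exonic bases lie in a gene annotated on the same strand, and the way shared reads were counted is not known here. Among the transporters the largest changes were in the glycine carrier SLC6A9 (0.70), the leucine carrier SLC7A5 (0.62) and the cystine carrier SLC7A11 (0.60). SLC3A2, the common heavy chain of the last pair, rose by 0.41. FGF21, a secreted hormone that ATF4 induces in other tissues, had too few counts to test: 1, 0, 0 and 0 counts in the DMSO libraries and 4, 5, 5 and 13 in the simvastatin libraries. The ratio of its summed counts per library total was 28.1, with an exact 95% interval of 4.62 to 1149 that covers counting error only.

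Of 20 cytosolic tRNA synthetases 12 rose and none fell (median 0.159), by less than the amino acid enzymes. GARS1 rose from 370 ± 21 to 504 ± 35 CPM (0.45), WARS1 from 125 ± 8 to 167 ± 8 CPM (0.42) and SARS1 from 205 ± 7 to 256 ± 10 CPM (0.33). The synthetases that were not called included QARS1 (-0.03), KARS1 (0.07) and LARS1 (0.10). The call of NARS1 (0.16) ended without any of DMSO replicates 2 and 4 and simvastatin replicate 4 (highest adjusted p = 0.140), and that of RARS1 (0.13) without any of DMSO replicates 1, 2 and 4 and simvastatin replicates 1 and 4 (highest adjusted p = 0.143).

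Of 29 tested genes of ER chaperones, folding and degradation 11 rose and none fell, with a median log2 fold change of 0.068. HERPUD1, a degradation factor, was at 79.9, 74.9, 71.9 and 76.3 CPM with DMSO and at 128, 120, 116 and 136 CPM with simvastatin (0.72 ± 0.05, adjusted p = 2.02e-12). HSPA5, the main ER chaperone BiP, was at 1274, 1178, 1246 and 1195 CPM with DMSO and at 1609, 1506, 1512 and 1737 CPM with simvastatin. Neither gene's groups overlapped. XBP1, which turns on genes of the unfolded protein response, rose by 0.46, SERP1, a factor of the translocon, by 0.38, SEC61A1, the translocon channel, by 0.29, and the coat gene SEC24D by 0.53. The degradation genes DERL1 and SYVN1 rose by 0.21 and 0.24. HSPA5, XBP1 and SERP1 are the 3 of 9 called members with a promoter in the table that hold the complete ER stress element (ERSE, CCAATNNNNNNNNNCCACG on either strand), shown here in capitals (GRCh38.p14: chr9:125241344-125241593, chr22:28800570-28800819 and chr3:150546497-150546746, all minus strand, 5′ to 3′ of the gene).

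HSPA5: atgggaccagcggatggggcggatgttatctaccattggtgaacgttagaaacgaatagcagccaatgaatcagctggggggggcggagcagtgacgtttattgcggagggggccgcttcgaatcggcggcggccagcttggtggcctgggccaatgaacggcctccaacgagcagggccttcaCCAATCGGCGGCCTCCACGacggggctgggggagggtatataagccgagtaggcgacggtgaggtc
XBP1: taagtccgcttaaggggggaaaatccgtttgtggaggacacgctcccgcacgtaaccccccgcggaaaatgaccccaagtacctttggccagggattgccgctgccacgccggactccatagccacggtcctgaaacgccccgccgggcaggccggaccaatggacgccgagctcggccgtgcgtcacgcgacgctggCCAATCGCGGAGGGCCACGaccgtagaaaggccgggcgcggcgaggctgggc
SERP1: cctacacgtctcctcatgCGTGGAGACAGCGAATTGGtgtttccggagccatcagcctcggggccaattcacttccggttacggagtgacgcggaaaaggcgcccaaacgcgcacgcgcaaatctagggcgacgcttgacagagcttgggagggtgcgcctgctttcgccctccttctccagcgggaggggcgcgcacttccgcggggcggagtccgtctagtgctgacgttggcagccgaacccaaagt

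The element lies at bases -66 to -48, -52 to -34 and -232 to -214 before the start. It is in 0.074% of all RefSeq promoters and in 15 of the 11019 matched to tested genes. Of the 25 ER list members with a promoter 7 hold it, so 4 of its carriers were not called. Of the heat shock protein list, which holds cytosolic and mitochondrial chaperones, none of 14 tested members was called (1 at an unadjusted p under 0.05), with a median of -0.001. The largest values of either sign were 0.113 and -0.160.

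Targets of the hypoxia-inducible factor (HIF) also rose. Outside glycolysis 12 of 17 tested members rose and none fell (median 0.314), and all 17 had a positive log2 fold change. BNIP3, a mitophagy receptor, was at 580, 543, 583 and 596 CPM with DMSO and at 775, 778, 763 and 808 CPM with simvastatin, with no overlap (0.44 ± 0.04, adjusted p = 5.59e-09). P4HA1 (0.31) and P4HA2 (0.47) encode the prolyl hydroxylases of collagen, CA9 (0.54) a carbonic anhydrase of the cell surface, ADM (0.43) the peptide adrenomedullin and HILPDA (0.63) a lipid droplet protein. VEGFA, the angiogenic growth factor, rose from 509 ± 28 to 635 ± 45 CPM (0.32 ± 0.06). EGLN1 (0.19) and EGLN3 (0.24), the oxygen sensors that HIF itself induces, rose as well. NDRG1 (0.47, adjusted p = 0.123) and ANGPTL4 (0.79, adjusted p = 0.504) were positive but not called.

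Of 21 glycolysis genes 6 rose and none fell (median 0.109), with 20 positive. PGK1, the first of the pathway's enzymes to make ATP, was at 3749, 3401, 3684 and 3608 CPM with DMSO and at 4335, 4344, 4395 and 4462 CPM with simvastatin (0.28 ± 0.03, adjusted p = 1.04e-06). The regulatory kinases PFKFB4 (0.38) and PFKFB3 (0.24), the hexokinase HK2 (0.23), PFKP (0.17) and the lactate exporter SLC16A3 (0.28) were the others. LDHA, which makes lactate, had a log2 fold change of 0.00. The number of members called was 10 without DMSO replicate 1. The promoter of PGK1 holds the core letters of the hypoxia response element (ACGTG on either strand) at bases -202 to -198 and -183 to -179, shown in capitals (GRCh38.p14, chrX:78103998-78104247, plus strand).

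PGK1: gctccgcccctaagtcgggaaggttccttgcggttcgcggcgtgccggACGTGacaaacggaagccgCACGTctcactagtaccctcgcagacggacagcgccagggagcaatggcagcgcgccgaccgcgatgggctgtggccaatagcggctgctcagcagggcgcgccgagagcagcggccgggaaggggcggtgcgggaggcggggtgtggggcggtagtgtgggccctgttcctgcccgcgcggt

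These 5 letters are common, in 18.5% of all RefSeq promoters and 23.3% of the 11019 matched to tested genes. They were in 197 of 500 matched promoters of genes called higher (39.4%) and in 44 of 256 of genes called lower (17.2%). The same 5 letters also form part of the E-box CACGTG and of TGACGTG, the core of an element of the unfolded protein response, so they do not stand for HIF alone. TGACGTG was in 5.60% of matched promoters of genes called higher, 3.12% of those called lower and 2.13% of those tested, and CACGTG in 12.4%, 5.86% and 8.65%. These shares are descriptions without a test.

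Of 21 enzymes of cholesterol synthesis 4 rose and none fell, with a median log2 fold change of 0.107, and 18 were positive. HMGCS1, which makes HMG-CoA, was at 122, 138, 139 and 127 CPM with DMSO and at 162, 174, 193 and 168 CPM with simvastatin, with no overlap (0.41 ± 0.05, adjusted p = 7.76e-07). SQLE, which makes the epoxide of squalene, rose by 0.28 ± 0.04 and MSMO1, a later demethylating oxidase, by 0.29 ± 0.04. IDI1, which makes the isoprenoid building block, rose by 0.16, and its call ended without any of DMSO replicates 1 and 4 and simvastatin replicates 1, 3 and 4 (highest adjusted p = 0.151).

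**Figure D3:**
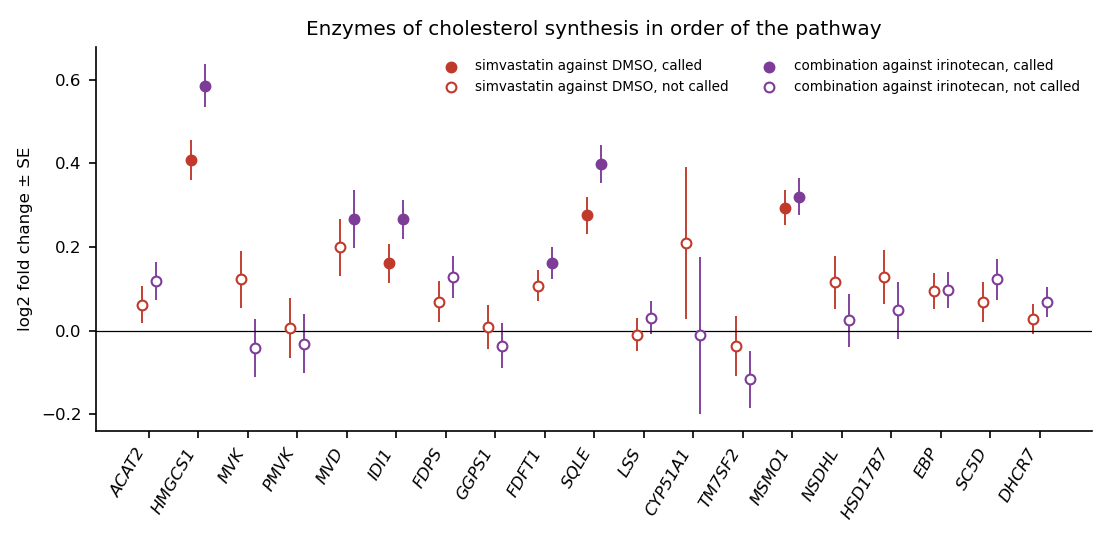
Log2 fold change with its standard error (vertical axis) of 19 enzymes of cholesterol synthesis, in pathway order from left to right, with simvastatin against DMSO in red and with the combination against irinotecan in purple. Filled points were called and open points were not, and HMGCS1 is the highest in both comparisons, at 0.41 and 0.59.

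DHCR7 (0.03), a late enzyme of the pathway, was not called. Among 13 genes of sterol uptake and SREBP control 2 rose and 1 fell. INSIG2, which holds SREBP in the ER, was at 32.6, 32.3, 34.7 and 28.9 CPM with DMSO and at 46.2, 48.0, 47.5 and 50.8 CPM with simvastatin. It rose by 0.58 ± 0.06 (adjusted p = 1.63e-07), and INSIG1, the INSIG that SREBP2 induces, by 0.18; the difference between the 2 genes was not tested. SREBF1, the gene of SREBP1, fell by 0.14 on the log2 scale, a call that ended without DMSO replicates 1 or 3 or simvastatin replicate 4 (highest adjusted p = 0.139). SREBF2 (-0.01), the gene of SREBP2, and SCAP (-0.07), its escort, were not called. None of 12 fatty acid synthesis genes was called (3 at an unadjusted p under 0.05, median 0.041), nor any of 8 LXR targets (1 at an unadjusted p under 0.05), which answer to oxysterols, with ABCA1 at -0.14 and ABCG1 at 0.52.

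KLF2, a factor of endothelial quiescence that statins raise in other cells, was not called (0.15 ± 0.07, adjusted p = 0.289). Of 16 genes of prenylation and its sources 2 rose (3.89% over all genes), DHDDS (0.20) and NUS1 (0.19). These are the paired subunits of the enzyme that makes dolichol for glycosylation in the ER. The call of NUS1 ended without DMSO replicates 1 or 2 or simvastatin replicate 4 (highest adjusted p = 0.0925). The farnesyl and geranylgeranyl transferase genes FNTA (0.09), FNTB (0.12) and PGGT1B (0.06) were not called. Of 7 tested KLF factors and related genes KLF4 (0.34) and KLF5 (0.26) rose, and without DMSO replicate 1 or simvastatin replicate 4 neither was called. The call of KLF4 also ended without DMSO replicate 4 or simvastatin replicate 2, and that of KLF5 without DMSO replicate 3 or simvastatin replicate 1 (highest adjusted p = 0.0660 and 0.120).

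YAP and TEAD targets, which respond to cell tension, gave 2 higher and 1 lower of 21 (3.89% and 2.11% over all genes). The ecto-enzyme NT5E (0.51) and F3 (0.51), the gene of tissue factor, rose, and the feedback gene AMOTL2 fell by 0.17. The calls of F3 and AMOTL2 were lost when the fit kept only the 12 libraries with a replicate number. The standard YAP readouts CCN1 (-0.11) and CCN2 (0.02) were not called. None of 15 actin and SRF genes was called (4 at an unadjusted p under 0.05, median -0.037). Without simvastatin replicate 3 the lower counts of these lists were 3 and 2.

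Genes of TGF-β ligands, receptors and SMADs, the pathway named in the title of the series, had a median log2 fold change of 0.001. Of 22 members 1 was called higher and 1 lower (3.89% and 2.11% over all genes). INHBA, an activin subunit gene, was the one called lower, at 0.580 ± 0.237 CPM with DMSO and 0.257 ± 0.082 CPM with simvastatin (SD, n = 4). Its adjusted p was 0.04998 and its call ended without any of DMSO replicates 3 and 4 and simvastatin replicates 1, 2 and 4 (highest adjusted p = 0.192). The ligands TGFB1 (-0.01), TGFB2 (-0.14) and TGFB3 (-0.13), the receptors TGFBR1 (0.01) and TGFBR2 (-0.02) and the mediator SMAD3 (-0.07) were not called. SMAD7, the feedback inhibitor, was not called despite a log2 fold change of 0.75 (adjusted p = 0.19). TGFB2 was at 30.6 to 36.1 CPM with DMSO and 28.8 to 32.2 CPM with simvastatin, ranges that overlapped.

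Among 4 tested ligands of the EGF receptor HBEGF rose from 3.08 ± 0.29 to 5.01 ± 0.24 CPM (0.70 ± 0.12, adjusted p = 0.000129). Of 23 early response and ERK feedback genes 2 rose (3.89% over all genes), MAFF (0.25) and SPRY4 (0.14), and 1 fell (2.11%), EGR1 by 0.14. Without any of DMSO replicates 1, 2 and 3 and simvastatin replicate 1 neither rise was called (nor MAFF without DMSO or simvastatin replicate 4, nor SPRY4 without simvastatin replicate 2). The call of EGR1 ended without any of DMSO replicates 2 and 4 and simvastatin replicates 1, 3 and 4 (highest adjusted p = 0.168). FOS (-0.09), DUSP6 (0.10) and SPRY2 (0.04) were not called.

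Of 23 matrix genes 7 rose and none fell (median 0.07). LOX, the enzyme that crosslinks collagen and elastin, was at 69.5, 64.8, 71.9 and 70.9 CPM with DMSO and at 133, 123, 135 and 146 CPM with simvastatin (0.95 ± 0.06, adjusted p = 1.08e-11). The next changes were much smaller, in the collagen genes COL4A1 (0.28) and COL5A1 (0.17), in the crosslinker LOXL2 (0.18) and in SERPINH1 (0.20), PLOD2 (0.17) and PLOD1 (0.15), which fold and modify collagen in the ER. Without simvastatin replicate 4 neither SERPINH1 nor PLOD1 was called. Single calls also ended without simvastatin replicate 1 (SERPINH1), DMSO replicate 2 (PLOD1) and DMSO replicate 1 (PLOD2), with a highest adjusted p of 0.0589. COL1A1 (0.10) and TNC (-0.19) were not called. STC1 rose beside STC2, from 401 ± 16 to 505 ± 24 CPM. PAPPA, the protease that stanniocalcins inhibit, had a log2 fold change of -0.14 and was not called.

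**Figure D4:**
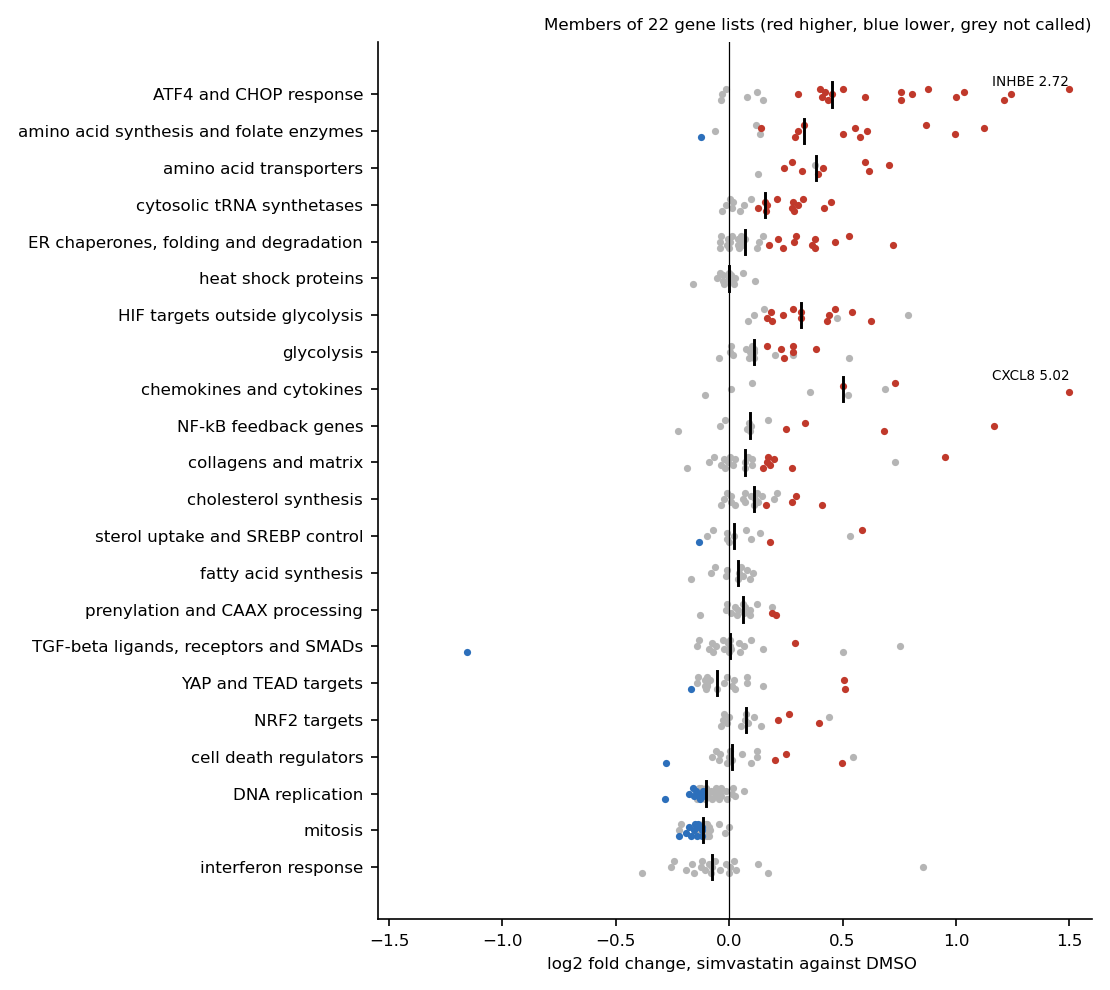
Log2 fold change with simvastatin against DMSO (horizontal axis) of each tested member of 22 gene lists (rows), red where called higher, blue where called lower and grey where not called. Black bars are medians, and INHBE at 2.72 and CXCL8 at 5.02 are drawn at the right edge with their values.

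The lists of NRF2 targets, lysosome and autophagy genes and cell death regulators had few called members, but larger shares than all genes. Called were 20%, 15.8% and 23.5% of their tested members, against 6.00% of all genes (3.89% higher and 2.11% lower). Of 15 tested NRF2 targets 3 rose: TXNRD1 (0.26 ± 0.04), the thioredoxin reductase, HMOX1 (0.40 ± 0.09), which degrades haem, and FTL (0.22), a ferritin chain. GCLM (0.07), GCLC (0.07) and NQO1 (0.05), the usual NRF2 readouts, were not called. Of 19 lysosome and autophagy genes 3 rose: MAP1LC3B (0.41), WIPI1 (0.58) and SQSTM1 (0.23), all of them part of autophagosome formation or cargo binding. The transcription factor TFE3 (0.05) and the lysosomal genes LAMP1 (-0.02) and CTSD (0.07) were not called.

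Of 17 cell death regulators 3 rose and 1 fell. TNFRSF10B, the death receptor DR5, rose from 99.6 ± 3.1 to 119 ± 5 CPM (0.25 ± 0.04, adjusted p = 2.51e-05). PMAIP1 (0.20) and BBC3 (0.50), genes of the BH3-only proteins NOXA and PUMA, rose, and BCL2L11, the gene of BIM, fell from 60.6 ± 3.7 to 49.8 ± 4.1 CPM (-0.28 ± 0.05, adjusted p = 0.000953). The call of BBC3 ended without any of DMSO replicates 3 and 4 and simvastatin replicates 1, 2 and 4. BAX (-0.04), which opens the mitochondrial membrane, was not called. None of 22 interferon response genes was called (5 at an unadjusted p under 0.05). None of 13 mitochondrially encoded mRNAs was called either (0 at an unadjusted p under 0.05), although all 13 were negative with a median of -0.155. In the 12 libraries with a replicate number that median was above 0.

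Cell cycle genes shifted down by small amounts. Of 35 mitosis genes 12 fell and none rose (median -0.116), and 34 were negative. Of 35 DNA replication genes 10 fell and none rose (median -0.102), and 31 were negative. KIF20A, a kinesin of cytokinesis, was at 251, 233, 249 and 249 CPM with DMSO and at 222, 214, 219 and 213 CPM with simvastatin, with no overlap (-0.18 ± 0.04, adjusted p = 0.00164). CDC25C, a phosphatase that starts mitosis, fell by 0.22, CDC20, an activator of the anaphase complex, by 0.19, and the spindle gene TPX2 by 0.14. E2F2, a factor of the G1/S transition, was at 39.8, 38.1, 39.4 and 34.4 CPM with DMSO and at 29.3, 31.9, 33.7 and 29.8 CPM with simvastatin (-0.28 ± 0.05, adjusted p = 0.00077). The helicase genes MCM2 (-0.15), MCM3 (-0.15) and MCM4 (-0.13) fell with it.

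These counts depend on the libraries: 5 mitosis genes were called lower without simvastatin replicate 4 and 17 without simvastatin replicate 3, and 6 replication genes without DMSO replicate 1. In the 12 libraries with a replicate number, which leave 3 a group, each list had 2 genes called lower. MKI67, the proliferation marker, was at 1251, 1150, 1417 and 1225 CPM with DMSO and at 1018, 993, 1215 and 1107 CPM with simvastatin. The groups overlapped and the change was not called (-0.22 ± 0.10, adjusted p = 0.288). CDKN1A, the gene of the inhibitor p21, rose from 51.5 ± 1.2 to 60.8 ± 2.3 CPM (0.24 ± 0.04, adjusted p = 0.000409). TOP1, on which irinotecan acts, was not called (0.03 ± 0.04).

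The genes called lower were changed by less than those called higher. Among called genes with a mean of at least 1 log2 CPM, clone names left aside, the 10 lowest log2 fold changes ran from -0.66 to -0.43. HHIPL1, a gene related to a hedgehog-binding protein, was at 2.67, 3.73, 2.88 and 2.74 CPM with DMSO and at 2.01, 2.02, 1.69 and 1.86 CPM with simvastatin. CNTN2 (-0.63), a neuronal adhesion protein, HTR1D (-0.62), a serotonin receptor, and EN1 (-0.61), a homeobox factor of the midbrain, were next, and NINL (-0.58), EHF (-0.49), KLHDC7A (-0.46), FOXO6 (-0.44), KRT15 (-0.43) and CEMIP (-0.43) followed. CEMIP, a hyaluronan-degrading protein, had the highest level of the 10, with 77.9, 83.9, 86.5 and 72.5 CPM with DMSO and 55.0, 56.9, 70.7 and 55.5 CPM with simvastatin. These 2 groups did not overlap, and simvastatin replicate 3 was the closest to DMSO. Single libraries ended the calls of CNTN2 (DMSO replicate 2, simvastatin replicates 1 and 2), EHF (DMSO replicates 3 and 4, simvastatin replicates 1, 2 and 4), KLHDC7A (DMSO replicate 1, simvastatin replicates 1 and 4) and FOXO6 (DMSO replicate 2). The calls of EN1, NINL, EHF and KLHDC7A were lost when the fit kept only the 12 libraries with a replicate number, and that of CEMIP when the number was also fitted there as a block.

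The 10 highest log2 fold changes under the same rule were those of CXCL8, INHBE, KCNK6 (1.34), CHAC1, GDF15, TRAF1, RN7SL2 (1.09), ADM2, STC2 and CTH. KCNK6 encodes a potassium channel. RN7SL2, a copy of the RNA of the signal recognition particle, shares its sequence with near-identical copies, and its call (adjusted p = 0.0484) ended in 9 of 15 alternatives, including without DMSO replicates 1, 2 or 4 or simvastatin replicates 1, 2 or 3. Of the 8 markers of glioma and astrocytes GFAP (-0.19), SOX2 (-0.14) and CD44 (-0.11) were called lower and none higher. In all, 6 of the 8 had a negative log2 fold change and 2 a positive one. FABP7 was not called, but its simvastatin libraries (257 to 265 CPM of library totals) lay above its DMSO libraries (239 to 246 CPM). GFAP, the astrocyte filament gene, was at 201, 205, 215 and 190 CPM with DMSO and at 177, 179, 180 and 177 CPM with simvastatin. In bulk RNA fewer cells of a type and less RNA per cell cannot be told apart. The calls of SOX2 (without DMSO replicate 3 or simvastatin replicate 2) and CD44 (without any of DMSO replicates 3 and 4 and simvastatin replicates 1, 2 and 4) ended when single libraries were left out.

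The libraries with irinotecan gave a repeat of the same drug step in 8 other libraries: the combination against irinotecan, which shares no library with simvastatin against DMSO. There 989 genes were called (5.94% of genes tested), 740 higher (4.45%) and 249 lower (1.50%). Of the 647 genes called higher with simvastatin alone, 638 had a positive log2 fold change in the repeat, and 422 were called higher there, 65.2% of the first list and 57.0% of the second. Of the 352 called lower, 337 were negative in the repeat and 95 were called lower, 27.0% of the first list and 38.2% of the second. None was called in the opposite direction. The median log2 fold change of the 2 lists in the repeat was 0.224 and -0.106.

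**Figure D5:**
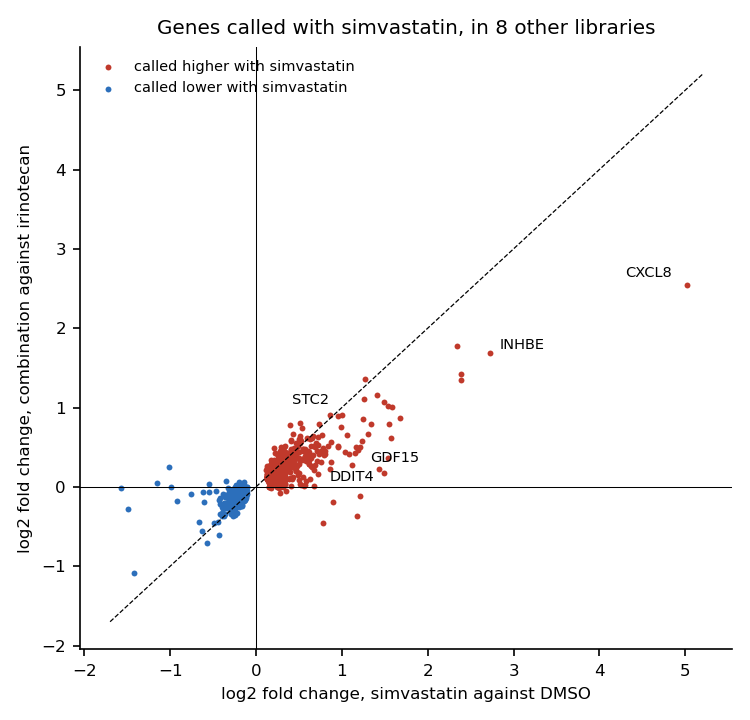
Log2 fold change in the combination against irinotecan (vertical axis) over that in simvastatin against DMSO (horizontal axis) for the 999 genes called in the latter, with a dashed line where both are equal. Red points were called higher and blue points lower with simvastatin alone, and CXCL8 lies at 5.02 across and 2.54 up.

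In the repeat the combination libraries of 17 of 23 ATF4 and CHOP members lay wholly above the irinotecan libraries (8.01% of all genes), and those of 13 of 35 mitosis genes wholly below (5.06%). Of 17 HIF targets outside glycolysis they lay wholly above in 6, against 13 without irinotecan. In the repeat 8 of these 17 were called higher (4.45% of all genes), with a median of 0.139, against 12 and 0.314 without irinotecan. There 15 were positive and 2 negative, the lowest at -1.137. STC2 (0.91), HERPUD1 (0.63), LOX (0.89) and BNIP3 (0.49) rose in the repeat by similar sizes as without irinotecan. The rise in the repeat was smaller in INHBE (1.69), GDF15 (0.50) and TRAF1 (0.50), which had 2.72, 1.21 and 1.17 without irinotecan. None of these differences was called in the test given below. HMGCS1 rose by 0.59 ± 0.05 there. VEGFA (0.14), PHGDH (0.15), RELB (0.21) and GFAP (-0.04) were not called in the repeat. Whether a response differed was tested by the departure from additivity, the log2 fold change with irinotecan minus that without it. By that test 2 of 16647 genes (0.0120%) were called, both with a smaller response in the presence of irinotecan (1000 genes at an unadjusted p under 0.05). Of the 23 tested ATF4 and CHOP members 19 had a negative departure and 4 a positive one. The median departure of that list was -0.156, against 0.007 over all genes, with 11 members at an unadjusted p under 0.05 and 1 called. Other lists leaned the other way. Of 21 YAP and TEAD targets 19 departures were positive and 2 negative (median 0.128, 10 at an unadjusted p under 0.05). Of 23 matrix genes 19 were positive and 4 negative (median 0.111, 10 at an unadjusted p under 0.05). None was called in these 2 lists. CXCL8 rose by 5.02 without irinotecan and by 2.54 with it (departure -2.48, adjusted p = 0.037), and DDIT4, an inhibitor of mTORC1, by 0.76 and 0.31 (departure -0.45, adjusted p = 0.037). DDIT4 shares 41.2% of its exonic bases with an antisense gene. Leaving out 1 library at a time gave 0 to 9 calls. Both calls ended without any of DMSO replicates 2 and 4, simvastatin replicate 1, irinotecan replicates 1 and 4 and each of the 4 combination libraries. The call of CXCL8 also ended without DMSO replicate 3 or irinotecan replicate 2, and that of DDIT4 without simvastatin replicate 4 or irinotecan replicate 3.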

How the data were processed

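The labels describe poly(A) RNA from U-251 MG cells in 4 groups of 4 libraries. The deposited table holds raw gene counts. Per the submitters' processing notes, FastQC, STAR 2.7.1, DESeq2 and the genome build GRCh38 were used; of the counting rule and strand nothing is given in the sources used here. Counts were analysed as deposited with edgeR 4.0.16 in R 4.3.3: genes were kept with filterByExpr (minimum count 10, minimum total 15), scaled by TMM, and tested by the robust quasi-likelihood F-test in one fit of all 16 libraries, with Benjamini-Hochberg adjustment over 16647 genes and a threshold of 0.05. CPM values per gene are TMM-scaled, and sums over marker lists use library totals. The common biological coefficient of variation was 5.25%. Single values used an exact two-sided permutation test. Exon overlaps came from GENCODE 29, promoters from RefSeq (GRCh38.p14). The test was checked on simulated data with 200 changed genes.

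The gene lists and members were chosen with earlier results of these data known. The genes named are the 10 highest and 10 lowest called with a mean of at least 1 log2 CPM, the called members of each list with the smallest p (up to 8), any member of lists of up to 25, and a few fixed genes. Which genes are named as not called was settled after their values were seen, and several with changes near 0 were left out. Results of some genes that this rule takes are not reported here. Alternatives were DESeq2 1.42.0, other scalings, no filter, the compared groups alone, a replicate block and leaving out each library.

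Same-numbered DMSO and simvastatin libraries had correlations of deviations from their group means of 0.039 to 0.2. Libraries of these groups with different numbers had -0.16 to 0.016. No label states that equal numbers mark a shared culture or day, so the main fit did not pair them. The fit with the number as a block is given below. No library pair was a duplicate: squared differences between counts of replicates were 2.59 to 15.4 times what sampling alone gives (chi-square per degree of freedom).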

Additional observations from a re-analysis of the deposited data

Results flagged for a closer look

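The response to simvastatin differed with irinotecan present in 2 genes by the test of the difference itself: the difference between the log2 fold changes with and without irinotecan was -2.48 for CXCL8 and -0.45 for DDIT4. In CXCL8 the response was smaller but still a rise, 2.54 on the log2 scale. Its mean level was 1.05 CPM with DMSO, 34.2 CPM with simvastatin, 4.46 CPM with irinotecan and 26.0 CPM with the combination. The smaller log2 fold change therefore started from a higher level. Both calls ended when single libraries were left out, as listed above.

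One library stood far from the other 3 of its group in 17 of 434 groups of 4 examined (3.92%), judged by its gap to the nearest other library as a share of the group's range, against Dixon's critical value at 95%. Chance gives about 1 in 20. Simvastatin replicate 3 was the highest of its group in 6 of them: HK2 (gap 0.846 of the range), TOP2A (0.896), CEMIP (0.884), DHCR7 (0.833), SCD (0.873) and TGFBR1 (0.858). DMSO replicate 2 was the lowest in CEBPB (0.943), XBP1 (0.866), TXNRD1 (0.957) and KIF20A (0.909), and DMSO replicate 3 in POLE (0.962). The highest library was DMSO replicate 4 in ASNS (0.837) and WIPI1 (0.836), DMSO replicate 1 in YARS1 (0.963), DMSO replicate 3 in DNAJB9 (0.831), simvastatin replicate 2 in ASNS (0.967) and simvastatin replicate 4 in RELB (0.864).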

How the results depend on the processing

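All 162 genes followed across the alternatives and called with simvastatin kept their direction in every alternative tried, and 105 were called in each of them. Genes called with simvastatin against DMSO ranged from 664 to 1224 when 1 library was left out (higher 469 to 644, lower 195 to 580), and were 1177 with DESeq2. In the compared groups alone 770 genes were called (520 higher, 250 lower), and 75.8% of the main list stayed called. For the combination against irinotecan the ranges without 1 library were 674 to 996 (higher 548 to 773, lower 126 to 223), with 455 lower without the filter and 469 lower in the compared groups alone. For the departure from additivity they were 0 to 9 (higher 0 to 4, lower 0 to 5), with 5 by DESeq2 (1 higher, 4 lower) and 14 without the filter (1 higher, 13 lower).

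The replicate block could be fitted on the 12 numbered libraries. It gave 1141 calls with simvastatin, 2016 for the combination (1278 higher, 738 lower) and 190 departures (93 higher, 97 lower). The same 12 libraries without the block gave 513 (376 higher, 137 lower), 163 lower for the combination, and 1 departure, lower. The numbers share no stated origin, and all 6 numbered DMSO and simvastatin libraries correlated best with their own number, a hint from the data and not the design. Between irinotecan and the combination only 2 of 6 did, and between simvastatin and irinotecan also 2 of 6. The count was 5 for DMSO and irinotecan and 6 for each of DMSO and simvastatin with the combination. The hint is therefore weak for the groups of the 2016 combination calls. Among the calls lost with the block were F3 (adjusted p = 0.124) and CEMIP (adjusted p = 0.0655), and the median of the mitochondrially encoded mRNAs turned from -0.155 to 0.029. Among those lost in the same libraries without the block were AMOTL2 (adjusted p = 0.114), EN1 (0.0772) and NINL (0.148). The cause of these shifts was not tested.

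Of 53 genes followed and not called, 6 were called in some alternative and 7 with values near 0 changed sign when 1 library was left out. Their ranges were TGFB1 -0.0344 to 0.0186, TGFBR1 -0.0485 to 0.0292, TGFBR2 -0.0440 to 7e-04, CCN2 -0.0083 to 0.0587, LDHA -0.0274 to 0.0485, SREBF2 -0.0354 to 0.0141 and TOP1 -0.0016 to 0.0515. Depth limits genes of few counts such as FGF21.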

Other observations

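Genes of transport between the ER and the Golgi rose with simvastatin. These 9 families were written down after the values of all genes had been seen, so their counts describe and are not independent evidence. Of 83 tested members 47 were called higher (3.89% over all genes) and 1 lower (2.11%), COPG2 of the COPI coat (-0.19), with a median log2 fold change of 0.197. In the combination against irinotecan, in 8 other libraries, 46 were called higher and none lower (median 0.185). ARF4, a small GTPase of the Golgi, was at 215, 208, 216 and 227 CPM with DMSO and at 342, 324, 320 and 381 CPM with simvastatin. Its groups did not overlap (0.66 ± 0.04, adjusted p = 1.08e-11).

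Among the COPII coat genes, which carry cargo out of the ER, 9 of 15 tested rose, with SEC24A at 0.51 ± 0.05. Of 12 golgins, the tethers of the Golgi, 7 rose, and of 12 SNAREs of this route, which fuse vesicles, 8 rose. KDELR3, a receptor that returns chaperones to the ER, went from 26.5 ± 2.4 to 42.2 ± 2.7 CPM (SD, n = 4), with no overlap (0.67 ± 0.06, adjusted p = 8.71e-10). Its promoter is one of 8 among the 40 matched promoters of the members called higher that hold TGACGTG on either strand, here as its reverse complement in capitals (GRCh38.p14, chr22:38467846-38468095, plus strand, bases -45 to -39). Those letters are in 1.68% of all RefSeq promoters and 2.13% of those matched to tested genes.

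KDELR3: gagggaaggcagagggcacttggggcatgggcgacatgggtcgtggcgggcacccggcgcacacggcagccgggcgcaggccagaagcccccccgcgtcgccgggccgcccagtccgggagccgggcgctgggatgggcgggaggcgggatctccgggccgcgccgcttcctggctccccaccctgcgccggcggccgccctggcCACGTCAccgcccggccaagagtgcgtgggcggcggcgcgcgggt

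Other families were chosen in the same way. Of 6 enzymes of the hexosamine pathway, which makes the sugar donor for glycosylation, 4 rose, with GFPT1, its first enzyme, at 0.49 ± 0.04. Of 4 SALL transcription factors SALL1 (-0.26) and SALL3 (-0.26) were called lower, and of 4 FGF receptors FGFR3 (-0.26) and FGFR2 (-0.21). The 4 simvastatin libraries of SALL3 were at 63.4 to 66.2 CPM and the 4 DMSO libraries at 75.0 to 79.0 CPM, without overlap. In the combination against irinotecan 1 SALL factor (median -0.287) and no FGF receptor (median -0.058) was called lower. With simvastatin alone 3 of 12 oligosaccharyltransferase genes were called higher (median 0.042). So were 3 of 8 genes of the signal recognition particle and its receptor (median 0.068) and 1 of 4 tested CREB3 factors.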
